A study of Mus musculus with 12 samples.

Results

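Transcription factors and cofactors that give deep-layer neurons of the neocortex their identity were followed across genotype and stage. They were chosen by name for that role, with earlier results of these data known. Found by gene symbol, they make up 10 of the 46603 genes counted. They are the T-box factor Tbr1, the zinc finger factors Fezf2, Bcl11b and Zfpm2, the SoxD factor Sox5, the forkhead factors Foxp1 and Foxp2, the Groucho-family corepressor Tle4, the nuclear factor I protein Nfib and the LIM domain-binding cofactor Ldb2. All 10 passed the filter on low counts in every comparison. In the neocortex, deep-layer neurons are the earliest-born excitatory neurons. Those of layer 6 send axons mainly to the thalamus and those of layer 5 mainly to subcerebral targets, and the balance between Tbr1 on one side and Fezf2 with its downstream factor Bcl11b on the other is known to separate these classes. Several of these genes are not restricted to such cells, since Bcl11b, Foxp1 and Foxp2 also mark medium spiny neurons of the striatum, and Nfib is also made by radial glia and astrocytes.

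RNA was sequenced from dissected cortex of Chd8+/+ and Chd8+/- mice of the C57Bl/6J strain at embryonic day 12.5 (E12.5) and postnatal day 5 (P5), with 3 libraries in each of the 4 groups. CHD8 is a chromatin remodelling factor, and the comparison asks how the loss of 1 Chd8 allele alters expression when progenitors prevail and when connections form. The Chd8+/- mice come from 1 line with a germline null allele, made by deleting exon 3 with a β-actin-driven Cre that was then bred out, so that every cell of the body is heterozygous and neither genotype carries Cre. Both hemispheres were taken at E12.5 and 1 hemisphere at P5, and nothing in the labels says which libraries share a litter, so that p-values measure the spread between these libraries.

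Between 38774591 and 54695236 reads were counted on genes per library, and normalised counts are given as CPM, the read count scaled to a common library size with TMM factors over all 12 libraries. Log2 fold changes are given with their standard error (SE) from edgeR's quasi-likelihood test, and a gene is called where its p, adjusted over all genes tested, is under 0.05. Chd8 itself was lower in every Chd8+/- library, with a log2 fold change of -0.51 at E12.5 (edgeR adjusted p = 0.00562) and -0.61 at P5 (edgeR adjusted p = 7.21e-05). Neurod6, a factor of cortical excitatory neurons, was present at both stages, at 83.5 CPM in Chd8+/+ libraries of E12.5 and 238 CPM in those of P5. Genes of striatal medium spiny neurons and of the choroid plexus were also present, and their levels are given beside the results they move with. The second Chd8+/- library of E12.5 stood apart from the other 2 of its group. Its summed thalamus markers were at 201% of the Chd8+/+ mean, against 94.2% and 88.7%, a sum carried mainly by Tcf7l2, at 156 CPM against 26.8 CPM on average in Chd8+/+, while the other 3 markers together were at 115%. Its summed excitatory neuron markers were at 79.7%, against 118% and 110%.

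The genes differ in size. On GRCm38, Tbr1 (ENSMUSG00000035033) lies on the plus strand at chr2:61802930-61814114 and Fezf2 (ENSMUSG00000021743) on the minus strand at chr14:12341892-12345865, with spans of 11.2 kb and 3.97 kb. Bcl11b (ENSMUSG00000048251, chr12:107910403-108003602) and Tle4 (ENSMUSG00000024642, chr19:14448072-14598051) span 93.2 kb and 150.0 kb on minus strands. The other 6 span at least 328 kb and lie at or above percentile 98.5 of genomic span among genes with counts. They are Sox5 (ENSMUSG00000041540, chr6:143828425-144781977), Foxp1 (ENSMUSG00000030067, chr6:98925338-99522721), Foxp2 (ENSMUSG00000029563, chr6:14901349-15441977), Nfib (ENSMUSG00000008575, chr4:82290173-82705750), Zfpm2 (ENSMUSG00000022306, chr15:40655042-41104592) and Ldb2 (ENSMUSG00000039706, chr5:44472132-44799680). Sox5 shares 9.25% of its exon bases with the antisense gene Sox5os1 and Foxp1 3.16% with Gm20696 and Gm49348, and the P5 count command set no strand and that of E12.5 is not given in the sources used here, so that this part of the 2 counts cannot be told apart from the neighbours. The other 8 share no exon bases with another gene.

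RefSeq start sites (GRCm38.p6) were found for 6 of the 10 genes, with 9 start sites in all. Foxp2, Nfib, Zfpm2 and Ldb2 had no entry in the set of start sites used here. Of the 9 windows of 250 bases before a start site, 2 held no annotated exon, that of Sox5 and 1 of the 2 of Tle4. Only windows free of exons are printed here. Capitals mark the letters searched on both strands for the families of Sox5, Tbr1, Foxp1 and Foxp2, and Nfib (no letters were searched for the other 5 proteins): ACAAT for SOX, CACACC for T-box, TAAACA for forkhead and TTGGC for a nuclear factor I half-site.
Sox5, chr6:143947107-143947356, minus strand: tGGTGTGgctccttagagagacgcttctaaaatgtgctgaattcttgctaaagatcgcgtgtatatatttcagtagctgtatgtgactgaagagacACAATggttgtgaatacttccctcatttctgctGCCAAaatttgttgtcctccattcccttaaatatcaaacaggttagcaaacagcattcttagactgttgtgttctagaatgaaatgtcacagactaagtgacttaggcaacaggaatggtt
Tle4, chr19:14598184-14598433, minus strand: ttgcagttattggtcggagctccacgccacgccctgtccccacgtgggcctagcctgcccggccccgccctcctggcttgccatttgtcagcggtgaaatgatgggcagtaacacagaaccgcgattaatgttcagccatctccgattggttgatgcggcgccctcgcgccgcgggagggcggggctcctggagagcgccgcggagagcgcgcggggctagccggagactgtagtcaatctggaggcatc
The Sox5 window, which lies inside the counted gene, is poor in G and C (39.6%) and holds 1 SOX, 1 T-box and 1 nuclear factor I match. The Tle4 window printed, outside the counted gene, is rich in G and C (65.2%, against a median of 52.4% over 32544 windows) and holds none of the 4. The other Tle4 window, chr19:14597214-14597463, overlaps an exon of the gene, has 70.8% G and C and holds 1 SOX and 1 nuclear factor I match. Over all these windows the SOX letters occur in 27.4%, the T-box letters in 16.3%, the forkhead letters in 12.03% and the nuclear factor I letters in 41.6%. Matches of such short words are a description of the letters only.

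Levels were compared between genes per kilobase of exon. In Chd8+/+ cortex at E12.5, Tbr1 stood highest at 40.5 CPM per kb, followed by Fezf2 at 29.6, Tle4 at 26.5, Bcl11b at 23.02 and Nfib at 19.7. Below these 5 came Sox5 at 6.66, Ldb2 at 5.06, Foxp1 at 4.51, Foxp2 at 3.19 and Zfpm2 at 2.95 CPM per kb. No 2 neighbours in this order overlapped among the 3 libraries. In Chd8+/- libraries of E12.5 the order of the means was the same, but the ranges of Fezf2 and Tle4, of Bcl11b and Nfib, of Ldb2 and Foxp1, and of Foxp2 and Zfpm2 overlapped.
At P5 the order had changed. Ldb2, which ranked 7 at E12.5, was highest in Chd8+/+ cortex at 29.1 CPM per kb, ahead of Bcl11b at 23.9, Tbr1 at 21.8, Fezf2 at 21.2 and Tle4 at 19.4. Foxp1 at 11.9 and Nfib at 11.5 formed a middle pair, and Zfpm2 at 5.65, Sox5 at 5.64 and Foxp2 at 2.37 CPM per kb were lowest. Tbr1 and Fezf2, Foxp1 and Nfib, and Zfpm2 and Sox5 overlapped with each other. In Chd8+/- cortex at P5, Bcl11b ranked 4 at 19.5 CPM per kb rather than 2, and Tbr1 ranked 2 at 22.1. The range of Bcl11b overlapped those of Tbr1 and Fezf2 above and Tle4 below.

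**Figure D1:**
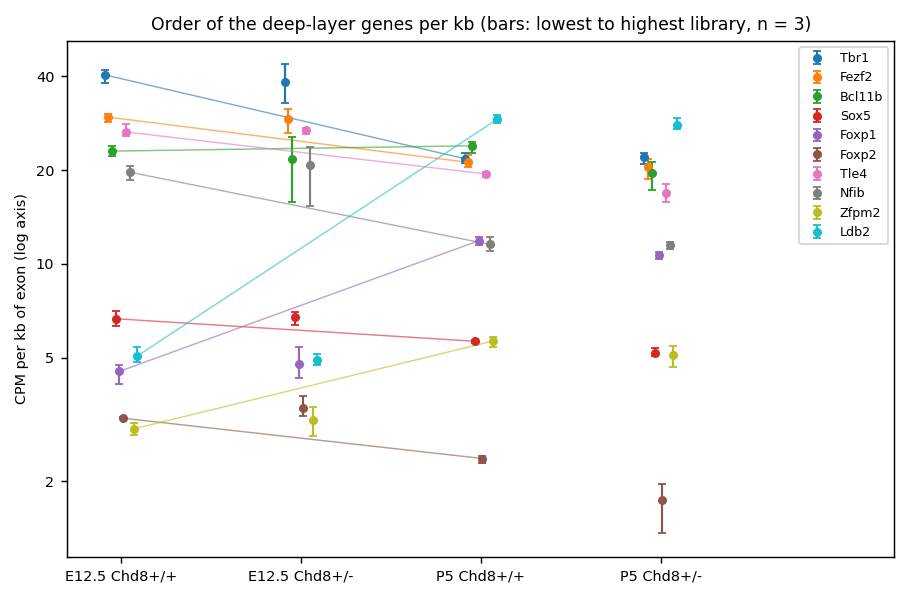
Mean level of each of the 10 genes in CPM per kb of exon (log axis) in the 4 groups, with bars from the lowest to the highest of 3 libraries and a line joining the Chd8+/+ groups. Ldb2 moves from 5.06 to 29.1 CPM per kb and Tbr1 from 40.5 to 21.8.

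Between E12.5 and P5, 9 of the 10 genes changed in Chd8+/+ cortex and the same 9 changed in Chd8+/- cortex, 3 higher and 6 lower at P5 in each without a correction for gene length. Among all genes tested, 84.0% were called by edgeR in Chd8+/+ and 83.2% in Chd8+/- libraries (41.7% higher and 42.3% lower in Chd8+/+, 41.7% higher and 41.5% lower in Chd8+/-), so a share of 9 in 10 is near the background. Stage cannot be told apart from the sequencing round, since the 2 stages were sequenced and tabulated separately. Stage values also mix fewer cells of a type with less RNA per cell, which cannot be told apart in tissue samples, and the same holds for the genotype values.

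Most factors of layer 6 identity fell. Tbr1, which specifies corticothalamic neurons and represses the layer 5 programme, was at 208, 229 and 228 CPM in the Chd8+/+ libraries of E12.5 and at 115, 124 and 119 CPM in those of P5. Chd8+/- libraries had 240.2, 180.1 and 209.6 CPM at E12.5 and 124, 115 and 124 CPM at P5. The stages were fully separated in both genotypes, with log2 fold changes of -0.89 (SE 0.0501, edgeR adjusted p = 4.8e-09) and -0.78 (SE 0.0976, edgeR adjusted p = 5.44e-05). Tle4, a corepressor that marks corticothalamic neurons, fell from 119, 119 and 131 CPM to 91.6, 91.0 and 88.0 CPM in Chd8+/+ libraries. In Chd8+/- libraries it went from 127, 125 and 121 CPM to 73.3, 83.5 and 78.5 CPM. The log2 fold changes of Tle4 were -0.45 (edgeR adjusted p = 1.36e-06) and -0.65 (edgeR adjusted p = 1.63e-06).
Foxp2, which marks layer 6 neurons and a part of the medium spiny neurons, fell in both genotypes, to a lower level in Chd8+/-. Chd8+/+ libraries held 51.7, 52.3 and 52.6 CPM at E12.5 and 39.4, 39.3 and 37.5 CPM at P5, a log2 fold change of -0.43 (edgeR adjusted p = 7.64e-06). Chd8+/- libraries held 54.0, 61.5 and 53.0 CPM and 22.3, 32.1 and 30.9 CPM, a log2 fold change of -0.97 (edgeR adjusted p = 6.53e-05). Sox5, which delays the appearance of subcerebral neurons until subplate and layer 6 neurons are made, fell least of the 6 without a correction for gene length, from 90.6, 95.5 and 101 to 81.8, 81.6 and 79.8 CPM in Chd8+/+ and from 100.4, 91.6 and 98.9 to 74.1, 72.5 and 77.2 CPM in Chd8+/- libraries. Its log2 fold changes were -0.24 and -0.37 (adjusted p = 0.000401 and 0.000117 from edgeR).
Nfib, a factor of deep-layer and glial differentiation, had the highest CPM of the 10 genes at E12.5. It fell from 278.4, 308 and 297 to 164, 172 and 182 CPM in Chd8+/+ libraries, at a log2 fold change of -0.77, and from 355, 229 and 348 to 175, 175 and 167 CPM in Chd8+/- libraries, at -0.84 (adjusted p = 8.62e-08 and 0.000600 from edgeR). Zfpm2 (Fog2), a zinc finger cofactor found in layer 6 corticothalamic neurons, went the other way without a correction for gene length. It rose from 14.01, 15.3 and 14.7 to 26.9, 28.5 and 29.0 CPM in Chd8+/+ libraries, which is a log2 fold change of 0.94 (edgeR adjusted p = 2.49e-08). In Chd8+/- libraries it rose from 17.3, 13.96 and 15.7 to 23.2, 27.1 and 25.5 CPM, a log2 fold change of 0.71 (edgeR adjusted p = 7.66e-05).

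Among the layer 5 factors, each gene took its own course. Fezf2, which specifies subcerebral projection neurons and is also made by early progenitors, was at 68.8, 69.9 and 65.9 CPM at E12.5 and 47.0, 48.0 and 51.4 CPM at P5 in Chd8+/+ libraries. In Chd8+/- libraries it was at 72.4, 60.9 and 68.2 CPM and 50.1, 47.8 and 43.2 CPM. Its log2 fold changes were close in the 2 genotypes, at -0.48 and -0.50 (adjusted p = 3.62e-06 and 0.000354 from edgeR). Bcl11b (Ctip2), which acts downstream of Fezf2 in corticospinal neurons, was the 1 member not called without such a correction. Its Chd8+/+ libraries held 179, 194 and 186 CPM at E12.5 and 185, 199 and 199 CPM at P5 (log2 fold change 0.06, adjusted p = 0.297 from edgeR). Its Chd8+/- libraries held 207, 128 and 194 CPM and 141, 173 and 162 CPM (log2 fold change -0.14, adjusted p = 0.432 from edgeR), and without the second E12.5 Chd8+/- library this became -0.35 (adjusted p = 0.00167).
Ldb2, a cofactor of LIM homeodomain proteins and a marker of layer 5 neurons, had the largest change of the 10 without a correction for gene length. It rose from 16.4, 17.98 and 16.2 CPM to 94.8, 96.4 and 100.1 CPM in Chd8+/+ libraries, 5.76-fold, and from 16.2, 17.2 and 15.8 CPM to 97.7, 90.5 and 91.3 CPM in Chd8+/- libraries, 5.74-fold. The log2 fold changes were 2.53 (SE 0.0591) and 2.52 (SE 0.0556), with adjusted p = 1.57e-12 and 4.64e-10 from edgeR. Foxp1, a forkhead factor of projection neurons from layer 3 to layer 6 and of the striatum, rose from 64.6, 56.7 and 64.8 CPM to 158, 164 and 168 CPM in Chd8+/+ libraries. In Chd8+/- libraries it rose from 59.3, 74.3 and 63.4 CPM to 142, 146 and 151 CPM. The log2 fold changes of Foxp1 were 1.39 and 1.17 (adjusted p = 1.4e-10 and 2.52e-07 from edgeR).

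**Figure D2:**
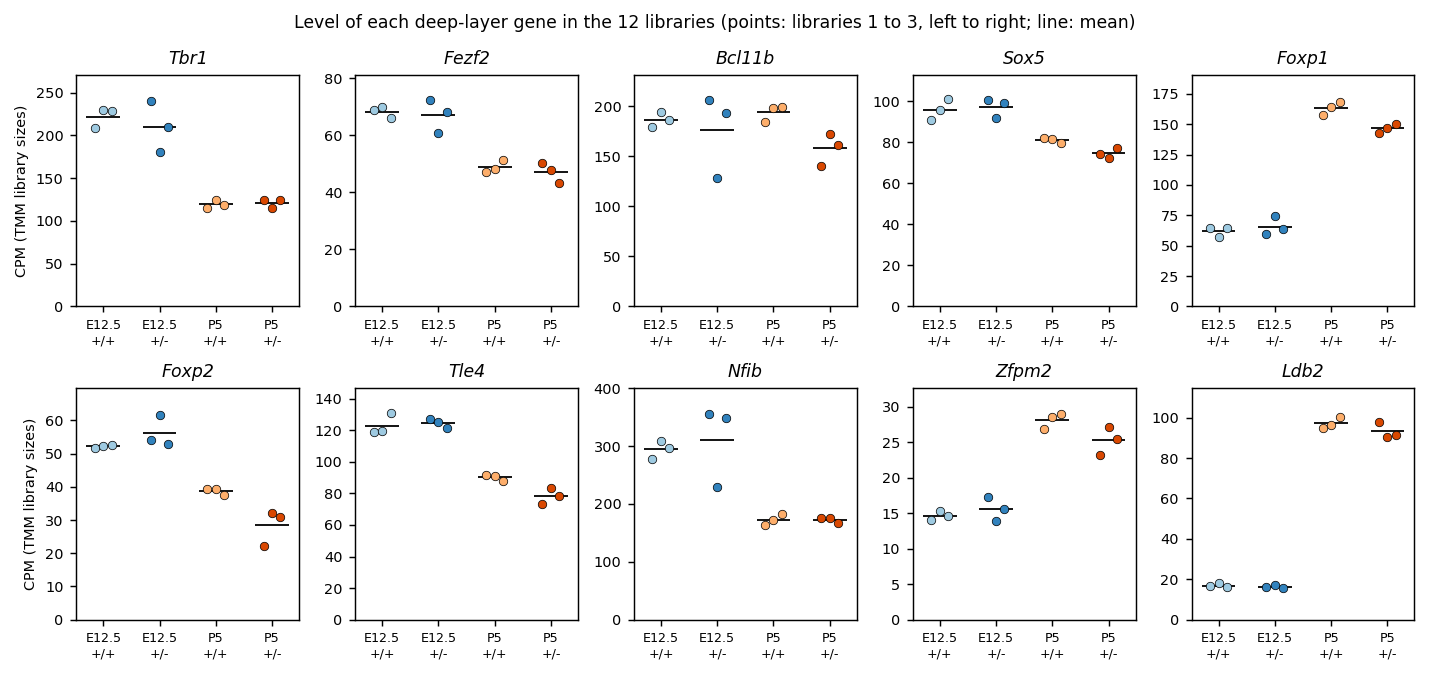
CPM of each of the 10 genes in the 12 libraries, 1 panel per gene with its own axis from 0, points for single libraries and lines for group means. Without a correction for gene length, Ldb2, Foxp1 and Zfpm2 are higher at P5 and 6 genes lower, and the low point of Bcl11b and Nfib at E12.5 is the second Chd8+/- library.

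The stage values of long genes depended on a correction for gene length. With offsets that remove each library's trend over genomic span, the log2 fold change in Chd8+/+ cortex became -0.07 for Foxp1 (edgeR adjusted p = 0.285), -0.32 for Zfpm2 (edgeR adjusted p = 0.000442), -0.23 for Bcl11b (edgeR adjusted p = 0.00167), 1.49 for Ldb2, -2.06 for Sox5, -1.82 for Foxp2, -1.97 for Nfib and -0.99 for Tle4, while the short genes Tbr1 and Fezf2 stayed at -0.93 and -0.52. With these offsets Foxp1 was thus no longer called, Zfpm2 was called lower rather than higher and Bcl11b was called lower. In Chd8+/- cortex Zfpm2 was called lower as well, at -0.42 (edgeR adjusted p = 0.00158), while Bcl11b at -0.37 and Foxp1 at -0.15 were not (adjusted p = 0.0667 and 0.0701 from edgeR). Relative to genes of like span, Ldb2 was the 1 gene of the 10 called higher at P5, in Chd8+/- cortex as well (1.61). With these offsets 8 of the 10 were called lower in Chd8+/+ and 7 in Chd8+/- cortex. Among all genes, 39.1% were called higher and 44.7% lower in Chd8+/+, and 39.1% and 43.9% in Chd8+/- libraries.

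Other deep-layer genes were counted in the same Chd8+/+ stage fit, against the 41.7% of all genes called higher. Of 11 further layer 5 genes, edgeR called 9 higher and 2 lower at P5, the median log2 fold change being 1.88, and of 11 further layer 6 and subplate genes it also called 9 higher and 2 lower, with a median of 2.39. The median of the 10 factors was -0.34 and that of all genes tested -0.02. Syt6, a synaptotagmin of layer 6 neurons, rose by 2.39 and Crim1, a corticospinal marker, by 1.65 on the log2 scale. With offsets for genomic span, 8 of the layer 5 genes were called higher and 2 lower (median 1.88) and 9 and 2 of the layer 6 and subplate genes (median 2.20), a count added after the data were seen, and Crim1 was at 1.00. The upper-layer factors, 9 in number, were called higher in 5 cases and lower in 4, with a median of 1.27. Progenitor genes were called lower in 8 of 10 cases and higher in 2, Slc1a3 and Fabp7 (named after their values were seen), with a median of -2.95. Among 17 paralogs of the 10 genes, edgeR called 5 higher and 10 lower, with a median of -0.47. Sox6, a close relative of Sox5, fell by 1.84 and Eomes (Tbr2), the relative of Tbr1 made by intermediate progenitors, fell by 5.15 on the log2 scale, and with offsets for genomic span Sox6 was at -3.27.

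**Figure D3:**
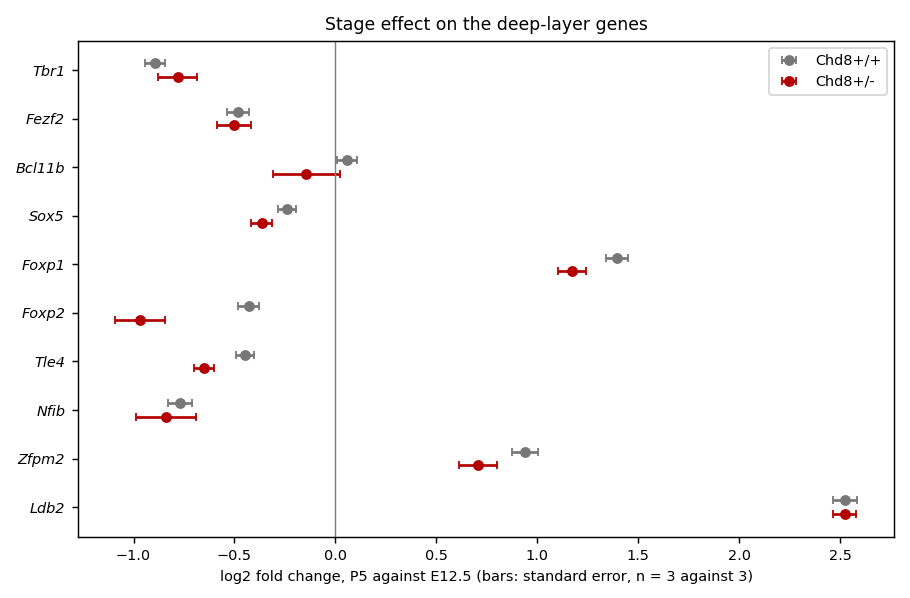
Log2 fold change of each gene at P5 against E12.5, by edgeR, in Chd8+/+ (grey) and Chd8+/- (red) libraries, with bars of 1 standard error. Ldb2 lies at 2.53 and 2.52, and Foxp2 is further below 0 in Chd8+/- (-0.97) than in Chd8+/+ (-0.43) libraries.

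At E12.5 no genotype difference was detectable in any of the 10 genes. The log2 fold changes lay between -0.08 (Bcl11b) and 0.10 (Foxp2), 6 above and 4 below 0, with a median of 0.02 against 0.00058 over all genes. edgeR called 0 of them, against 0.00553% of all genes, and 0 had an unadjusted p under 0.05, against 5.15% of all genes. DESeq2 called 0 as well, against 0.0373% of the genes it tested. Foxp2 was the 1 gene whose groups did not overlap, higher in Chd8+/-, as in 5.60% of all genes. The Chd8+/+ libraries lay at 51.7, 52.3 and 52.6 CPM and the Chd8+/- libraries at 54.0, 61.5 and 53.0 CPM, a log2 fold change of 0.10 (SE 0.0640, edgeR adjusted p = 0.944), and without the second Chd8+/- library it was 0.04.
The second Chd8+/- library decided several of the small differences. Relative to the Chd8+/+ mean, Bcl11b was at 111%, 68.5% and 104% in Chd8+/- libraries 1, 2 and 3, Nfib at 120.4%, 77.9% and 118% and Tbr1 at 108%, 81.1% and 94.4%. Foxp1 was at 95.6%, 119.8% and 102%, high in the library where the other 3 genes were low. Without it, the log2 fold change was 0.10 for Bcl11b, 0.26 for Nfib, 0.02 for Tbr1 and -0.01 for Foxp1, still with no call by edgeR (lowest adjusted p = 0.747, for Nfib).

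At P5 the level of 5 of the 10 genes was lower in every Chd8+/- library than in any Chd8+/+ library: Foxp2, Bcl11b, Tle4, Foxp1 and Sox5. Such a separation toward lower values held for 14.8% of all genes. The list was chosen with earlier results of these data known, so its counts beside such shares are a description only. Tbr1, Fezf2, Nfib and Ldb2 differed little between the genotypes, with log2 fold changes between -0.04 and 0.04. The same 5 genes had an unadjusted p under 0.05 from edgeR, where 17.8% of all genes did and 9.77% did with a lower level in Chd8+/-. After adjustment edgeR called 0 of the 10, against 0.00536% of all genes, since Chd8 alone passed, while DESeq2 called 4 of the 10, Foxp2, Bcl11b, Tle4 and Foxp1, against 5.22% of the genes it tested. The median log2 fold change of the 10 was -0.12, against 0.0017 over all genes.

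Foxp2 had the largest difference. Chd8+/+ libraries lay between 37.5 and 39.4 CPM, at 38.7 ± 1.05 CPM (SD, n = 3), and Chd8+/- libraries at 28.4 ± 5.37 CPM (SD, n = 3). The first Chd8+/- library, at 22.3 CPM, was well below the other 2. The log2 fold change was -0.43 (SE 0.108, edgeR adjusted p = 0.117, DESeq2 adjusted p = 0.00171). Without the first Chd8+/- library it was -0.28 (edgeR adjusted p = 0.186). Without the second it was -0.52 (edgeR adjusted p = 0.0473), in a fit where edgeR called 327 of 19044 genes tested, against 1 of 18666 with every library.
Bcl11b averaged 194 ± 8.25 CPM (SD, n = 3) in Chd8+/+ and 158 ± 16.4 CPM (SD, n = 3) in Chd8+/- libraries. The fitted log2 fold change was -0.28 (SE 0.0663, edgeR adjusted p = 0.113, DESeq2 adjusted p = 0.00147). Without the second Chd8+/- library edgeR called it, at -0.34 (adjusted p = 0.0302), among 327 of all genes. Fezf2, which lies upstream of Bcl11b in layer 5 neurons, overlapped between the genotypes, with a log2 fold change of -0.04 (SE 0.0600, edgeR adjusted p = 0.774).
Tle4 averaged 90.2 ± 1.94 CPM (SD, n = 3) in Chd8+/+ and 78.5 ± 5.11 CPM (SD, n = 3) in Chd8+/- libraries, which is a log2 fold change of -0.19 (SE 0.0450, edgeR adjusted p = 0.116, DESeq2 adjusted p = 0.0213). It was likewise called by edgeR without the second Chd8+/- library (adjusted p = 0.0302), among the same 327 genes. Tbr1, which shares layer 6 neurons with Tle4 and Foxp2, averaged 119 ± 4.63 CPM (SD, n = 3) and 121 ± 5.37 CPM (SD, n = 3), with overlapping libraries (log2 fold change 0.04, SE 0.0437, edgeR adjusted p = 0.686).
Foxp1 and Sox5 differed by less. Foxp1 averaged 163 ± 5.28 CPM (SD, n = 3) and 147 ± 4.02 CPM (SD, n = 3), a log2 fold change of -0.14 (SE 0.0393, edgeR adjusted p = 0.132, DESeq2 adjusted p = 0.0417). Sox5 averaged 81.1 ± 1.09 CPM (SD, n = 3) and 74.6 ± 2.41 CPM (SD, n = 3), a log2 fold change of -0.10 (SE 0.0353, edgeR adjusted p = 0.179, DESeq2 adjusted p = 0.208). With offsets for genomic span these became -0.03 for Foxp1 and 0.02 for Sox5, while Foxp2, Bcl11b and Tle4 shrank to -0.33, -0.23 and -0.12, each with an unadjusted p under 0.05.
Zfpm2 was lower on average, at 23.2, 27.1 and 25.5 CPM against 26.9, 28.5 and 29.0 CPM, but its groups overlapped (log2 fold change -0.14, SE 0.0642, edgeR adjusted p = 0.298). The Zfpm2 value was -0.04 with offsets for genomic span and -0.08 without the first Chd8+/- library. Ldb2 and Nfib overlapped as well, with log2 fold changes of -0.04 and 0.01 (adjusted p = 0.608 and 0.907 from edgeR).

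**Figure D4:**
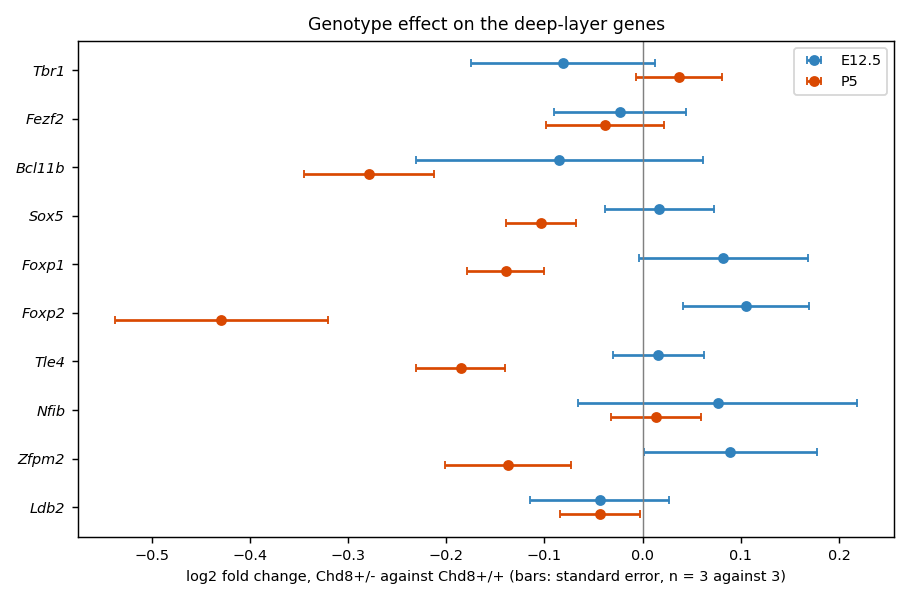
Log2 fold change of each gene in Chd8+/- against Chd8+/+ libraries by edgeR at E12.5 (blue) and P5 (orange), with bars of 1 standard error. At E12.5 every value lies between -0.08 and 0.10, and at P5 Foxp2 (-0.43) and Bcl11b (-0.28) lie farthest below 0.

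Markers of striatal medium spiny neurons also differed at P5. All 14 had lower values in Chd8+/- libraries, 12 of them with no overlap, and their median log2 fold change was -0.32. edgeR called 0 of them, 13 had an unadjusted p under 0.05 and DESeq2 called 9. Pde10a, a phosphodiesterase of medium spiny neurons, was at -0.50, Ebf1 at -0.75 and the dopamine receptor Drd1 at -0.37 (adjusted p = 0.0950, 0.0950 and 0.0973 from edgeR). Their summed level lay between 567 and 617 CPM in Chd8+/+ and between 383 and 499.6 CPM in Chd8+/- libraries, and no marker of the list was at 0 in any library.
The summed medium spiny neuron markers stood at 64.8%, 84.6% and 79.2% of the Chd8+/+ mean in Chd8+/- libraries 1, 2 and 3. Foxp2 stood at 57.5%, 82.9% and 79.9%, Bcl11b at 72.3%, 89.0% and 83.3% and Tle4 at 81.3%, 92.6% and 87.0%, with the lowest value in the first library and the highest in the second in each case. Zfpm2, a layer 6 gene whose groups overlapped, stood at 82.5%, 96.5% and 90.7%, in the same order. Foxp1 stood at 87.3%, 89.8% and 92.2% and Sox5 at 91.4%, 89.4% and 95.3%, in another order. Tbr1, which medium spiny neurons do not make, stood at 104%, 96.3% and 104%. The part of striatal RNA in the lower values of Foxp2, Bcl11b, Tle4 and Foxp1 was not tested. At E12.5 the same list had 10 of 13 genes tested above 0, a median log2 fold change of 0.08 and a summed level between 189.7 and 206 CPM in Chd8+/+ and between 203 and 208 CPM in Chd8+/- libraries.
Choroid plexus markers were lower on average too, 6 of 6 of them without overlap at P5, with a median of -0.71. edgeR called 0 of them, 6 had an unadjusted p under 0.05 and DESeq2 called 4 of the 4 it tested. Their summed level lay between 442 and 574 CPM in Chd8+/+ and between 322 and 380.4 CPM in Chd8+/- libraries. Of 12 genes of GABAergic interneurons, 11 were lower, 4 with an unadjusted p under 0.05, and edgeR called 0 and DESeq2 1, with a median of -0.10. Their sum stood at 83.9%, 95.4% and 92.5% of the Chd8+/+ mean in Chd8+/- libraries 1, 2 and 3, below every Chd8+/+ library. This order was also that of the medium spiny neuron markers, Foxp2, Bcl11b, Tle4 and Zfpm2. The glutamate decarboxylase Gad1 was at -0.24 (edgeR adjusted p = 0.133). Of 4 thalamus markers, 3 were lower, with a median of -0.64, 2 with an unadjusted p under 0.05 and 0 called by edgeR, or by DESeq2 among the 3 it tested. The sum of the 4 stood at 84.4%, 85.9% and 84.9% of the Chd8+/+ mean, or 97.4%, 93.6% and 95.5% without Tcf7l2, in both cases below every Chd8+/+ library. Of 6 Cajal-Retzius cell markers, 3 were lower, with a median of -0.07, 1 with an unadjusted p under 0.05, Reln (reelin, at -0.17), which DESeq2 but not edgeR called. Reln made up most of their sum, which stood at 91.0%, 91.6% and 87.1%, and the other 5 together stood at 101%, 102% and 106%, overlapping with the Chd8+/+ libraries. Leaving single genes out of these sums was chosen after their values were seen. Of 10 progenitor genes, 8 were lower, with a median of -0.10, 3 lower and 1 higher with an unadjusted p under 0.05 and 0 called by edgeR or DESeq2, and their summed level overlapped between the genotypes. The part of these cells in the levels of the 10 genes was not tested.

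**Figure D5:**
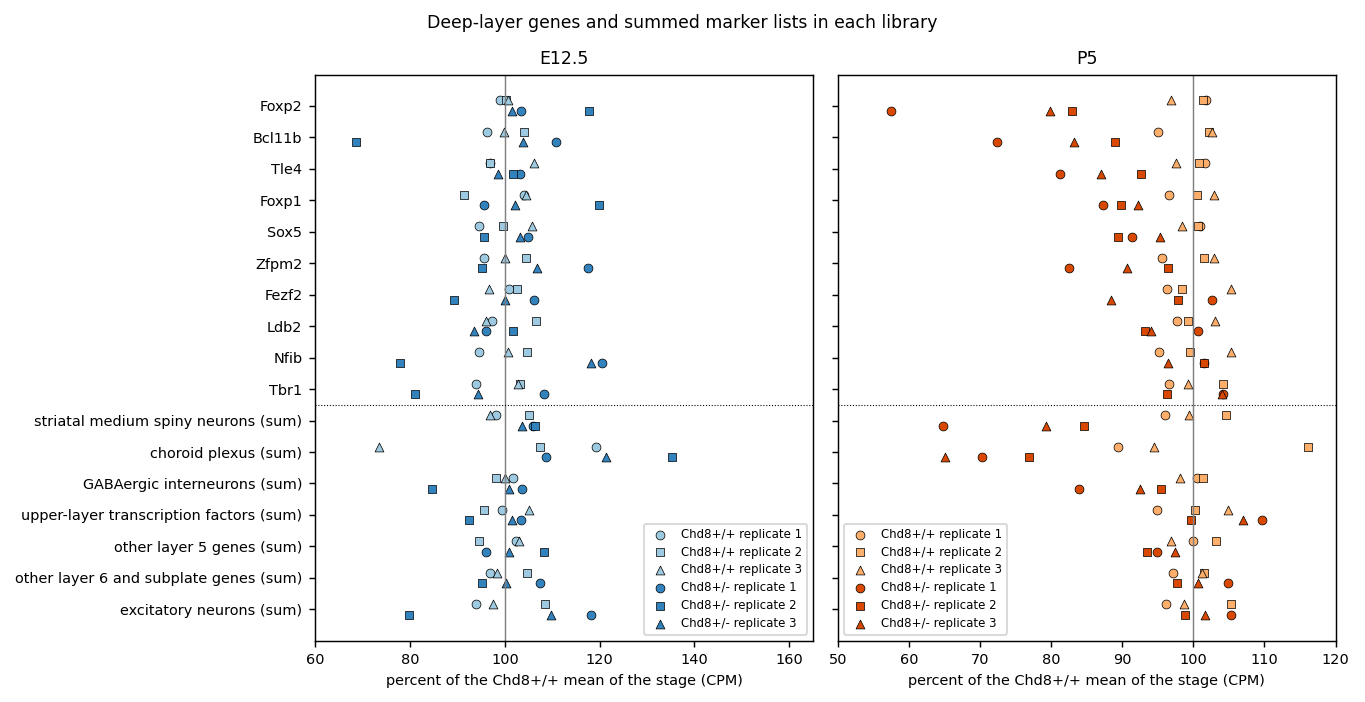
Level of each of the 10 genes, and of the summed markers of 7 lists under the dotted line, in every library as a percentage of the Chd8+/+ mean of its stage, at E12.5 (left) and P5 (right). At P5 the Chd8+/- libraries of Foxp2 (57.5%, 82.9% and 79.9%) and of the medium spiny neuron markers (64.8%, 84.6% and 79.2%) lie below 100%, while those of Tbr1 (104%, 96.3% and 104%) lie around it.

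Other genes of cortical layers were counted in the same P5 fit. Of the 11 further layer 6 and subplate genes, 7 were higher and 4 lower in Chd8+/-, and the median log2 fold change was 0.06, 0 called by edgeR or DESeq2 and 1 with an unadjusted p under 0.05, Syt6, at -0.20 (edgeR adjusted p = 0.279). Of the 11 further layer 5 genes, 4 were higher and 7 lower, with a median of -0.09. edgeR called 0 and 3 had an unadjusted p under 0.05, while DESeq2 called S100a10 higher and Crim1 lower. The edgeR log2 fold changes were 0.22 for S100a10, which marks corticospinal neurons, -0.19 for Crim1 and -0.14 for Etv1, a factor of layer 5 corticostriatal neurons. Of 9 upper-layer factors, 7 were higher and 2 lower with a median of 0.07, 0 called by either tool and 2 with an unadjusted p under 0.05, the layer 4 factor Rorb at 0.20 and Mef2c at 0.13. Of 8 excitatory neuron genes, 5 were higher and 3 lower, with a median of 0.01. edgeR called 0, 2 had an unadjusted p under 0.05 and DESeq2 called Neurod6, at -0.14.
Paralogs of the 10 genes were split as well. Of 16 tested by edgeR, 9 were higher and 7 lower, with a median of 0.01, 0 called and 4 with an unadjusted p under 0.05. DESeq2 called 0 of the 12 it tested. Sox6 was at -0.18 beside -0.10 for Sox5, Eomes at -0.36 beside 0.04 for Tbr1, and Foxp4 at 0.16 beside -0.14 for Foxp1 and -0.43 for Foxp2. The Foxp4 groups overlapped (edgeR adjusted p = 0.158).

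An interaction term over all 12 libraries tested whether stage altered the genotype effect. edgeR called 0 of the 10 genes, against 0% of all genes, and 4 had an unadjusted p under 0.05, against 10% of all genes (1972 of 19676). DESeq2 called 0 of the 9 it tested, against 0.0929% of its genes. The 4 were Foxp2 at -0.55 (SE 0.146, edgeR adjusted p = 0.362, DESeq2 adjusted p = 0.0642), Zfpm2 at -0.24, Foxp1 at -0.24 and Tle4 at -0.22 (adjusted p = 0.490, 0.466 and 0.378 from edgeR). With offsets for genomic span the values shrank to -0.40 for Foxp2, -0.10 for Zfpm2, -0.08 for Foxp1 and -0.12 for Tle4, and the number with an unadjusted p under 0.05 went from 4 to 1, Foxp2, and to 2 with offsets for exon length. It was also 2 with a replicate block, and leaving out 1 library took it to 2 (without the second Chd8+/+ library of E12.5, the first Chd8+/- library of P5 or the second or the third Chd8+/+ library of P5) and to 6 (without the second Chd8+/- library of E12.5). In the fit without offsets, for each of these 4 the Chd8+/- level relative to Chd8+/+ was lower at P5 than at E12.5. Without the second E12.5 Chd8+/- library the Foxp2 value was -0.47. With every gene of at least 1 count tested, edgeR called Foxp2 (adjusted p = 0.0281), among 17 of 32739 genes. Of the medium spiny neuron markers, all 14 had a negative interaction, with a median of -0.49, against -0.17 for the 10 genes and -0.02 for all genes. Of these 14, edgeR called 0 and gave 7 an unadjusted p under 0.05, while DESeq2 called 2 of the 7 it tested.

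The genes whose course over the 4 groups was most like that of each member were found by the distance between the 4 group means of log2(CPM + 0.5), centred on their mean, among all genes tested in the interaction and outside the lists. Sox5 lay nearest to Morc3 (distance 0.00463), Fezf2 to Gm37724 (0.00720), Tle4 to Gm15996 (0.0108) and Tbr1 to D430013B06Rik (0.0124). Zfpm2 lay nearest to C1qtnf7 (0.0140), Nfib to Cops4 (0.0178) and Foxp1 to Atrn (0.0232). The closest genes to Ldb2, Bcl11b and Foxp2 were farther away, Nt5dc3 at 0.0368, Synpo2 at 0.0375 and Rnaset2b at 0.0589. With only 4 group means, such likeness is a description of level changes.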

How the data were processed

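The authors trimmed paired-end reads with Trim Galore 0.4.1, aligned them to mouse GRCm38.p4 with TopHat2 2.1.0 and counted aligned reads per gene with featureCounts 1.5.0. The deposited values are raw read counts per gene for 2 sequencing runs of each library, in 1 table per stage. The P5 table was counted without regard to strand per the file headers, and the strand setting of the E12.5 table is not given in the sources used here. Runs were summed, giving 38774591 to 54695236 counts per library. Each comparison was fitted across all genes passing filterByExpr with edgeR 4.0.16 (R 4.3.3, limma 3.58.1), by its quasi-likelihood test after TMM scaling, with p adjusted by Benjamini and Hochberg, and called at an adjusted p under 0.05. Genotype was tested within each stage, stage within each genotype, and their interaction over 12 libraries. DESeq2 1.42.0, limma-voom, other scalings, a looser count filter, offsets from a loess trend (span 0.5) on exon length or genomic span, a replicate block and leaving out each library were alternatives. The script was tested on simulated data. Named genes are the 10 members, Chd8, at most 3 genes of each other list by smallest P5 genotype p, and for each member the gene nearest in pattern outside the lists. The members and lists were chosen with earlier results of these data known. With 3 libraries against 3, an exact permutation test of a single gene cannot go below p = 0.1.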

Additional observations from a re-analysis of the deposited data

Results flagged for a closer look

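Foxp2 was the 1 gene of the 10 whose genotype groups did not overlap at either stage and lay in opposite directions. At E12.5 its log2 fold change in Chd8+/- against Chd8+/+ was 0.10, with all 3 Chd8+/- libraries above all 3 Chd8+/+ libraries, and at P5 it was -0.43, with all 3 below. Such separations held for 5.60% of all genes at E12.5 (higher) and 14.8% at P5 (lower), and the share with both was not counted. The E12.5 gap was narrow, the highest Chd8+/+ library being at 52.6 CPM and the lowest Chd8+/- library at 53.0 CPM. The interaction of genotype with stage was -0.55 (unadjusted p = 0.00210, edgeR adjusted p = 0.362, DESeq2 adjusted p = 0.0642), so the difference between the stages did not pass adjustment. The E12.5 value was 0.04 without the second Chd8+/- library, in which Tcf7l2, a thalamus marker, was at 156 CPM against 26.8 CPM on average in Chd8+/+. The P5 value was -0.28 without the first Chd8+/- library, in which the summed medium spiny neuron markers stood at 64.8% of the Chd8+/+ mean. The part of either in the Foxp2 values was not tested.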

How the results depend on the processing

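The 9 stage calls held in both genotypes under DESeq2, limma-voom, RLE and upper quartile scaling, the looser filter, exon-length offsets, 1 model of all 12 libraries and a replicate block. Offsets for genomic span turned the stage change of Foxp1 and Zfpm2 to -0.073 and -0.32 in Chd8+/+ and to -0.15 and -0.42 in Chd8+/- libraries, and that of Bcl11b in Chd8+/+ to -0.23 (-0.12 for exon length). They also turned the genotype value of Sox5 at E12.5 to -0.019, of Sox5 and Ldb2 at P5 to 0.015 and 0.046, and the interaction of Sox5, Nfib and Ldb2 to 0.039, 0.060 and 0.12. The interaction became 0.013 for Nfib and 0.00079 for Ldb2 with exon-length offsets and 0.0045 for Ldb2 with upper quartile scaling, and the P5 value of Nfib became -0.0026 in 1 model of all libraries. The cause was not tested.
At P5 the number of members called was 0 in the edgeR fit, 4 with DESeq2 and 3 with all genes of at least 1 count, and that of all genes went from 1 to 651 with DESeq2, 995 with the looser filter and 4 in 1 model of all 12 libraries. At E12.5, all genes called went from 1 to 5 with DESeq2, 13 with the looser filter and 2 in 1 model. In the interaction they went from 0 to 8 with DESeq2 and to 17 with the looser filter, which called 1 member. The summed level of the 10 genes, 161.6, 159.7, 152.5 and 141.1 CPM per kb in the order E12.5 Chd8+/+, E12.5 Chd8+/-, P5 Chd8+/+ and P5 Chd8+/-, was 547, 535, 505 and 465 as TPM, a unit of another scale, and 143 CPM per kb in P5 Chd8+/- with RLE scaling.
Leaving out 1 library at a time, E12.5 genotype values ranged from -0.19 to 0.021 for Tbr1, -0.079 to 0.046 for Fezf2, -0.21 to 0.10 for Bcl11b, -0.026 to 0.059 for Sox5, -0.013 to 0.15 for Foxp1, -0.012 to 0.060 for Tle4, -0.029 to 0.26 for Nfib and -0.076 to 0.0088 for Ldb2, with 0 to 2 of all genes called. P5 values ranged from -0.087 to 0.029 for Fezf2 and -0.021 to 0.060 for Nfib, with 0 to 3 members and 1 to 327 of all genes called, the 3 members without the second Chd8+/- library. Interaction values ranged from -0.090 to 0.046 for Fezf2, -0.25 to 0.046 for Nfib and -0.051 to 0.034 for Ldb2, with 0 to 2 of all genes called.
Same-numbered Chd8+/+ and Chd8+/- libraries did not all deviate together (r from -0.295 to -0.131 at E12.5 and from 0.0288 to 0.245 at P5). Deviations within groups of 3 are not independent and the labels give no litters. Whether same-numbered libraries share a litter therefore cannot be told from these values. The replicate block called 0 of all genes at E12.5, 4 at P5 and 0 members at either stage. Not every library correlated best with its own number. Standard errors of the genotype values ran from 0.0464 (Tle4) to 0.146 (Bcl11b) at E12.5 and from 0.0353 (Sox5) to 0.108 (Foxp2) at P5 on the log2 scale, which limits the differences that 3 libraries a group can show.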
